A study of Sus scrofa with 4 samples.

Results

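The genes described here are antiviral genes of the interferon system. They cover the sensors of viral nucleic acid, their adaptor and the effector families they induce. The ISG15 conjugation system and the 2 chains of the type I interferon receptor are also included. Members were found by symbol in the deposited count files from a list of 46 names, in which DDX58 and RIGI are the same gene, so that the list holds 45 genes. A row with the symbol was found for 42 of them, out of 35670 genes listed, and each of the 42 had at least 10 reads in a library. BST2, GBP2, RTP4 and the name RIGI had no row under that symbol, and RIGI is counted as DDX58.

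Interferons are secreted when a cell detects viral RNA or DNA. They bind receptors at the cell surface and, through JAK kinases and STAT and IRF transcription factors, raise the expression of a set of genes whose products cut, trap or tag viral components. Many of the sensors are themselves products of this set, so that sensing and response feed each other. Fibroblasts both make type I interferon and respond to it.

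Porcine fetal fibroblasts, connective-tissue cells grown from skin, were the source of the RNA. The libraries fall into 2 groups of 2: cells whose genotype is given as BRG1-overexpressed, and controls of wild-type genotype (WT). BRG1 is the ATPase of the BAF chromatin remodelling complex and is encoded by SMARCA4. All 4 libraries come from cells kept under serum starvation. The name pTK-642 stands in every title, control ones included, and its meaning is not given in the labels. Nothing in the labels says that the libraries of a group are separate cultures, and the p-values then reflect only how far these samples spread, which may be technical. The series asks how raised BRG1 affects chromatin in donor cells and, after nuclear transfer, the embryos made from them.

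Reads on genes numbered between 34486400 and 38126860 per library. SMARCA4 had 159 and 163 CPM (read counts scaled to the library's gene reads and by TMM, a trimmed-mean factor) in the libraries labelled BRG1, against 154 and 179 CPM in controls 1 and 2, with a log2 fold change of -0.04 ± 0.11 (SE; adjusted p = 0.765). Its 95% interval ran from -0.27 to 0.18 and the groups overlapped, so the text speaks of libraries labelled BRG1. Whether RNA from an introduced BRG1 sequence would be counted under this pig gene is not known here, so its value does not settle how much BRG1 the cells made. Fibroblast markers were abundant, with summed levels of 35340 and 35380 CPM over 9 genes in the libraries labelled BRG1, against 24750 and 28060 CPM in controls, and 6 of the 9 were higher. Of 10 leukocyte markers PTPRC and LYZ had 0 reads in every library. The summed level of the list, 46.0 and 46.2 CPM in the libraries labelled BRG1, against 82.8 and 85.7 CPM in controls, was almost all CD14, which was lower. Of the plasmacytoid dendritic list TCF4 alone had a row and was higher, at 106 and 104.5 CPM in the libraries labelled BRG1 and 68.4 and 85.6 CPM in controls. Summed levels over all 4 libraries lay at 4.39 to 7.77 CPM for endothelial markers (1 higher, 0 lower), 0.178 to 1.07 CPM for epithelial ones (0 higher, 1 lower), 8.31 to 17.1 CPM for Schwann cell and melanocyte ones (1 higher, 1 lower) and 0.311 to 1.05 CPM for skeletal muscle (0 higher, 0 lower). The part of these markers in the results below was not tested.

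Nearly all members were lower in the libraries labelled BRG1. Of the 42 members, 39 fell and 2 rose, while 1 did not pass the test (adjusted p under 0.05; edgeR's quasi-likelihood test, adjusted by the Benjamini-Hochberg method over all 14617 genes tested, as for every adjusted p here). Among all genes tested, 23.6% fell and 21.0% rose. Calls over all genes split into 3444 lower and 3068 higher, against 2140 lower and 4819 higher with libraries scaled by size alone, where 38 members fell and 2 rose. At least a 2-fold fall was found for 30 members, against 6.27% of all genes. Both libraries labelled BRG1 lay below both controls in 40 members and above both in 2, against 35.7% and 37.5% of all genes. The median log2 fold change was -1.57 over members and 0.02 over all genes. These counts include OASL and ISG20, which had few reads in the libraries labelled BRG1 and entered the test through their controls. Requiring 10 reads in each library leaves both out. Of the 40 members then tested, 37 fell and 2 rose, with a median of -1.53. Of all 13188 genes then tested, 3245 fell and 3004 rose, with a median of 0.01.

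**Figure D1:**
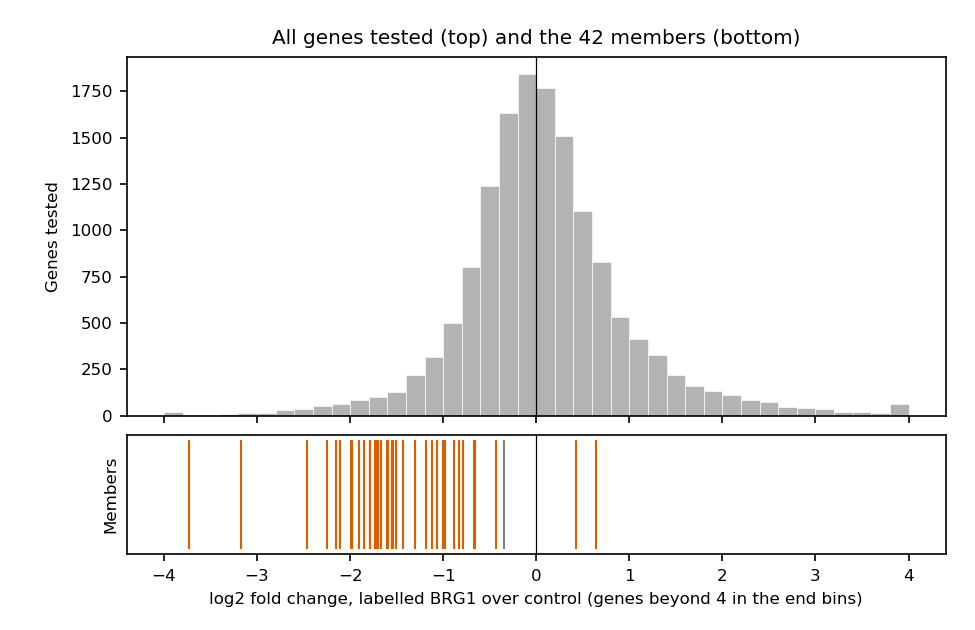
Number of genes by log2 fold change (libraries labelled BRG1 over controls) for all 14617 genes tested, in the upper panel, and 1 line for each of the 42 members in the lower panel, orange where the adjusted p was under 0.05 and grey otherwise. Genes beyond 4 in either direction are drawn in the end bins. Members gather between about -2 and -1, while all genes centre near 0, and MAVS and IFNAR1 are the 2 lines on the right.

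Summed over the 42 members, the level was 1641 and 1688 CPM in the libraries labelled BRG1, against 4956 and 4528 CPM in controls 1 and 2. That was 0.178% and 0.182% of all gene reads in the libraries labelled BRG1, against 0.455% and 0.422% in controls. The groups did not overlap, and the mean was 2.85-fold lower in the libraries labelled BRG1. An exact permutation test of 2 against 2 libraries gave p = 0.333, the smallest it allows (two-sided). In bulk RNA, fewer cells of a kind and less RNA per cell cannot be told apart. Reads outside annotated genes also differed, at 10.3% and 10.5% of reads listed in the libraries labelled BRG1 and 6.11% and 7.34% in controls; their part in the result was not tested.

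**Figure D2:**
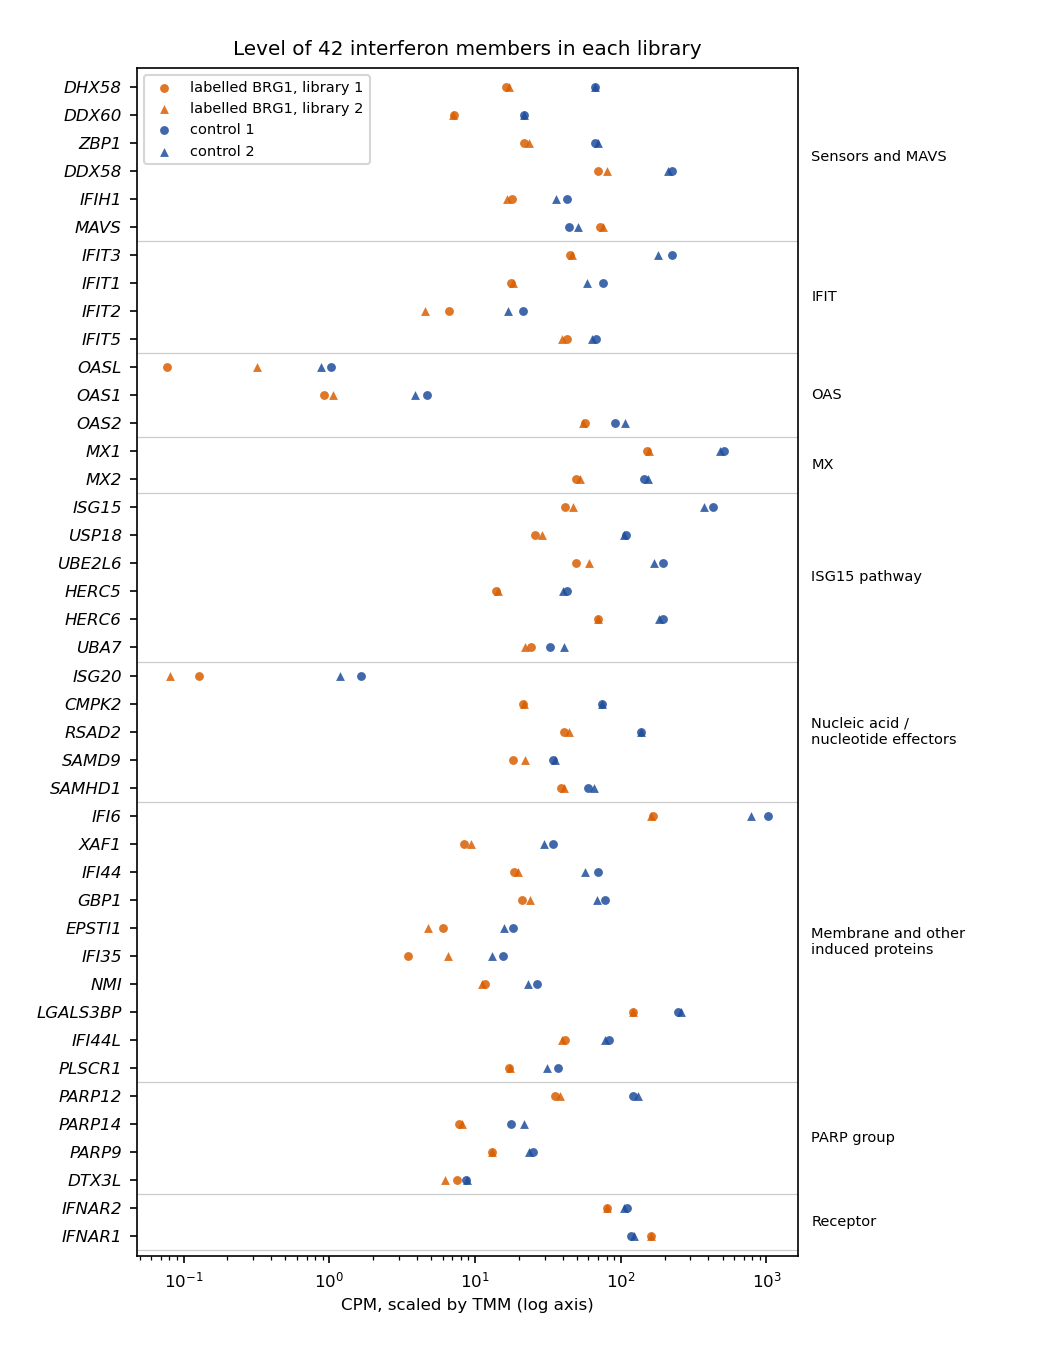
Level of each member in CPM, scaled by TMM, on a log axis, with 1 point per library: orange for the libraries labelled BRG1, blue for controls, circles for library 1 and triangles for library 2 of each group. Orange points lie left of blue ones in every row except MAVS and IFNAR1.

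All 5 sensors fell, against 23.6% of all genes tested, while MAVS, the adaptor of RIG-I and MDA5, rose. DHX58 (ENSSSCG00000017416; Sscrofa11.1 chromosome 12, 20647698 to 20656691), the LGP2 helicase that modulates the signalling sensors, had 16.4 and 17.1 CPM in the libraries labelled BRG1, against 66.5 and 66.7 CPM in controls. Its log2 fold change of -1.99 ± 0.11 (SE) was the largest fall among the sensors (adjusted p = 5.48e-09), and the pairs of replicates lay close together. DDX58 (chromosome 10, 33891720 to 33976151), which encodes RIG-I, the sensor of short RNA with a triphosphate end, had 69.5 and 80.2 CPM in the libraries labelled BRG1, against 224 and 212 CPM in controls (log2 fold change -1.54 ± 0.11). Its RefSeq span overlaps by 38.3 kb that of ACO1, an aconitase gene, which was also lower (-0.38 ± 0.10; adjusted p = 0.00606). IFIH1 (chromosome 15, 68930998 to 68985145), which encodes MDA5, the sensor of long double-stranded RNA, had 17.99 and 16.6 CPM in the libraries labelled BRG1, against 42.5 and 36.1 CPM in controls (-1.19 ± 0.13). In each of these genes the groups were well apart.

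ZBP1 (chromosome 17, 57975982 to 57986117), a sensor of nucleic acid in the Z form that can start cell death, had 21.7 and 23.5 CPM in the libraries labelled BRG1 and 67.1 and 69.7 CPM in controls (-1.60 ± 0.11). DDX60, an interferon-induced helicase, had 7.14 and 7.10 CPM in the libraries labelled BRG1 and 21.6 and 21.7 CPM in controls (-1.61 ± 0.15). For all 5 sensors the adjusted p was 5.34e-06 or lower.

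MAVS (ENSSSCG00000007143; chromosome 17, 31850646 to 31869273), the mitochondrial protein on which RIG-I and MDA5 converge, went the other way. It had 72.1 and 75.3 CPM in the libraries labelled BRG1, against 43.9 and 50.6 CPM in controls, a 1.56-fold higher mean. Its log2 fold change was 0.64 ± 0.11 (95% interval 0.41 to 0.88; adjusted p = 0.000235), and the groups did not overlap. The ratio of DDX58 to MAVS reads within a library, which no scaling of libraries can move, was 0.964 and 1.07 in the libraries labelled BRG1, against 5.11 and 4.19 in controls.

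**Figure D3:**
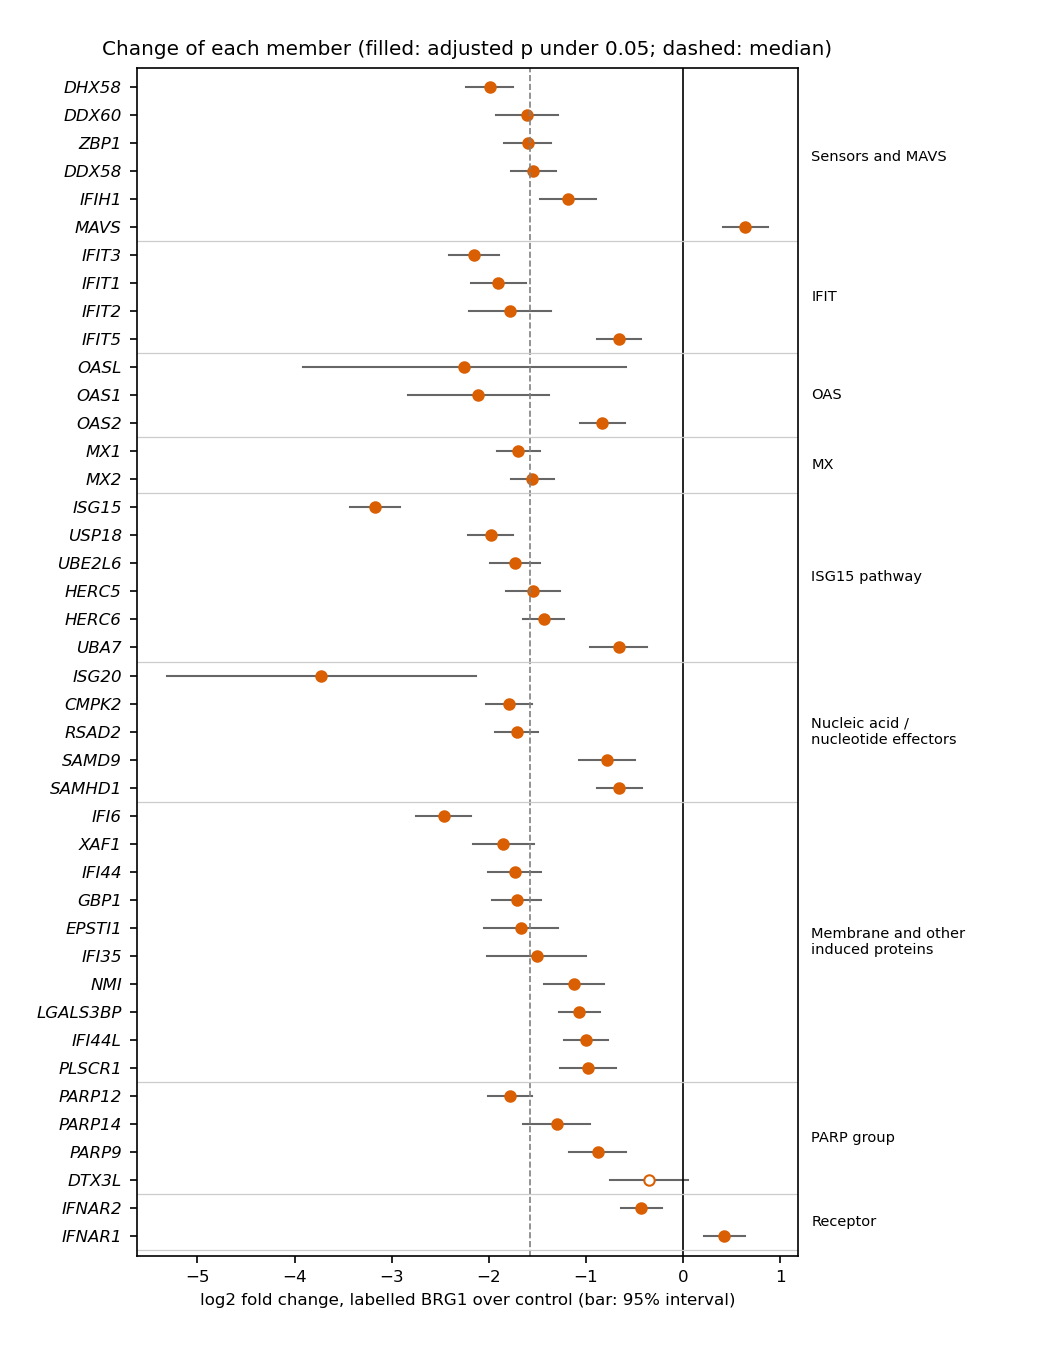
Log2 fold change of each member (libraries labelled BRG1 over controls) with its 95% interval, grouped by role and ordered within a role from the largest fall; filled points passed an adjusted p of 0.05. The dashed line is the members' median of -1.57, and DTX3L is the open point whose interval crosses 0.

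Against 23.6% of all genes tested, all 4 genes of the IFIT family fell, IFIT5 by the smallest amount. These proteins bind the ends of foreign RNA or work with those that do. IFIT3 (ENSSSCG00000061268), a partner that stabilises IFIT1 on RNA in human cells, had 44.8 and 46.5 CPM in the libraries labelled BRG1, against 225 and 181 CPM in controls (log2 fold change -2.15 ± 0.12; adjusted p = 3.51e-09). IFIT1 (ENSSSCG00000010452), which binds RNA whose cap lacks methyl marks, had 17.8 and 18.1 CPM in the libraries labelled BRG1, against 75.1 and 58.8 CPM in controls (-1.90 ± 0.13; adjusted p = 3.82e-08). IFIT2 (ENSSSCG00000010451), another partner in these complexes, had 6.63 and 4.51 CPM in the libraries labelled BRG1 and 21.5 and 16.8 CPM in controls (-1.78 ± 0.20; adjusted p = 4.38e-06). In IFIT1, IFIT2 and IFIT3, control 1 stood above control 2, but both controls were above both libraries labelled BRG1.

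IFIT5 (ENSSSCG00000010454), which binds RNA ends in human cells without the other IFIT proteins, had 43.0 and 39.7 CPM in the libraries labelled BRG1, against 67.3 and 63.5 CPM in controls. Its log2 fold change was -0.66 ± 0.11 (95% interval -0.89 to -0.43; adjusted p = 0.000154), and its interval did not meet those of IFIT1 (-2.18 to -1.62), IFIT2 (-2.20 to -1.36) or IFIT3 (-2.41 to -1.90). Per library, IFIT3 had 1.04 and 1.17 times the reads of IFIT5 in the libraries labelled BRG1, against 3.34 and 2.85 times in controls. IFIT2, IFIT3 and IFIT1 lie side by side between 101193421 and 101249486 on chromosome 14, with gaps of 10.4 and 12.2 kb, in the RefSeq annotation of Sscrofa11.1; that table held no position for IFIT5. The RefSeq span of LIPA, a lysosomal lipase gene, covers IFIT1, IFIT2 and IFIT3, and LIPA itself did not pass the test (log2 fold change 0.07 ± 0.11; adjusted p = 0.63).

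The OAS genes fell, but the only one with many reads, OAS2, fell least. OAS enzymes respond to double-stranded RNA by making short oligoadenylates that switch on the nuclease RNase L. OAS2 (ENSSSCG00000009881) had 57.2 and 55.0 CPM in the libraries labelled BRG1, against 91.8 and 108 CPM in controls (log2 fold change -0.83 ± 0.11; adjusted p = 2.21e-05). OAS1 (ENSSSCG00000046640) had 36 and 40 reads, or 0.917 and 1.07 CPM, in the libraries labelled BRG1, against 165 and 124 reads, or 4.71 and 3.86 CPM, in controls (-2.11 ± 0.34; adjusted p = 0.000145). The pair lies 3.39 kb apart, between 38827667 and 38867427 on chromosome 14. OASL, a relative without that enzymatic activity in human cells, had only 3 and 12 reads in the libraries labelled BRG1 and 36 and 28 in controls, so that it entered the test through its controls. Its log2 fold change of -2.25 ± 0.78 (adjusted p = 0.0279) did not pass without control 1 (-2.13; adjusted p = 0.112) or without library 1 labelled BRG1 (-1.56; adjusted p = 0.267), and was -3.58 without library 2 labelled BRG1 (adjusted p = 0.0262).

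MX1 and MX2, dynamin-like GTPases that block incoming viruses, fell to a like degree. MX1 (ENSSSCG00000012077; chromosome 13, 204843049 to 204868927) had 151 and 157 CPM in the libraries labelled BRG1, against 512 and 484 CPM in controls (log2 fold change -1.70 ± 0.10; adjusted p = 1.14e-08). MX2 (ENSSSCG00000012076; 204798633 to 204821612), its neighbour 21.4 kb away, had 49.3 and 52.6 CPM in the libraries labelled BRG1, against 144 and 155 CPM in controls (-1.55 ± 0.10; adjusted p = 2.36e-08). The 95% intervals, -1.92 to -1.47 for MX1 and -1.77 to -1.33 for MX2, overlapped.

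Every gene of the ISG15 conjugation system fell, against 23.6% of all genes tested, with the modifier itself falling most and its activating enzyme least. ISG15 (ENSSSCG00000040575; chromosome 6, 63363201 to 63364211) is a ubiquitin-like protein that is attached to other proteins during an antiviral response. It had 1637 and 1759 reads, or 41.7 and 47.0 CPM, in the libraries labelled BRG1, against 14967 and 11937 reads, or 427 and 372 CPM, in controls. The mean was 9.01-fold lower in the libraries labelled BRG1 (log2 fold change -3.17 ± 0.12; adjusted p = 2.91e-10). Its fall ranked 39 among the 14617 genes, counted from the largest. UBA7, the activating enzyme of ISG15, had 24.3 and 22.0 CPM in the libraries labelled BRG1, against 32.8 and 40.7 CPM in controls (log2 fold change -0.66 ± 0.14; adjusted p = 0.00111). The RefSeq span of UBA7 overlaps by 8.965 kb that of TRAIP, which did not pass (-0.40 ± 0.39, adjusted p = 0.424). The ratio of ISG15 to UBA7 reads was 1.72 and 2.13 in the libraries labelled BRG1, against 13.1 and 9.14 in controls.

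UBE2L6, the conjugating enzyme, had 49.7 and 60.5 CPM in the libraries labelled BRG1, against 195 and 170.0 CPM in controls (-1.73 ± 0.12; adjusted p = 3.44e-08). HERC5, the main ligase for ISG15 in human cells, had 13.8 and 14.5 CPM in the libraries labelled BRG1, against 42.6 and 40.0 CPM in controls (-1.55 ± 0.13). HERC6, the ligase used in mouse, had 69.7 and 70.3 CPM in the libraries labelled BRG1, against 195 and 184 CPM in controls (-1.44 ± 0.10). These 2 ligase genes lie 3.78 kb apart, between 130532256 and 130665591 on chromosome 8, and their intervals overlapped. USP18 (ENSSSCG00000000774; chromosome 5, 70183321 to 70227990), which strips ISG15 from proteins and also restrains signalling at the IFNAR2 chain, had 25.8 and 28.6 CPM in the libraries labelled BRG1, against 108 and 106 CPM in controls (-1.98 ± 0.11; adjusted p = 3.39e-09). The genes for attaching ISG15 and for removing it were thus all lower.

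Effectors that act on nucleic acids or nucleotides fell in 5 of 5 cases, against 23.6% of all genes tested. The 5 include ISG20, which passed the filter only through its controls. RSAD2 (ENSSSCG00000008648), which encodes viperin, an enzyme that makes a chain-terminating nucleotide, had 40.6 and 44.1 CPM in the libraries labelled BRG1, against 138.5 and 139 CPM in controls (-1.71 ± 0.10; adjusted p = 9.05e-09). CMPK2 (ENSSSCG00000008647), the mitochondrial nucleotide kinase encoded beside it, had 21.5 and 21.6 CPM in the libraries labelled BRG1, against 74.9 and 74.4 CPM in controls (-1.79 ± 0.11). They lie 5.59 kb apart, between 128880853 and 128917873 on chromosome 3.

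SAMHD1, which breaks down deoxynucleotides, had 38.7 and 40.9 CPM in the libraries labelled BRG1 and 59.4 and 66.0 CPM in controls (-0.66 ± 0.11; adjusted p = 0.000198). Its span overlaps by 1.40 kb that of TLDC2, which was lower too (-0.98 ± 0.26; adjusted p = 0.0065). SAMD9, a cytosolic restriction factor of poxviruses, had 18.2 and 22.2 CPM in the libraries labelled BRG1 and 34.2 and 35.5 CPM in controls (-0.79 ± 0.14; adjusted p = 0.000259). ISG20, an exonuclease of RNA, had only 5 and 3 reads in the libraries labelled BRG1 against 58 and 38 in controls, so that it too entered the test through its controls. Its log2 fold change was -3.73, with a wide 95% interval from -5.32 to -2.14.

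All 10 tested membrane effectors and other induced proteins fell, 8 of them at least 2-fold, against 23.6% and 6.27% of all genes tested. IFI6 (ENSSSCG00000034570; chromosome 6, 84852782 to 84858072), a small membrane protein that protects infected cells from death, had 166 and 161 CPM in the libraries labelled BRG1, against 1024 and 782 CPM in controls (log2 fold change -2.46 ± 0.13; adjusted p = 3.33e-09). Control 1 was 1.31-fold control 2, and both lay far above the libraries labelled BRG1. XAF1, a partner of the apoptosis inhibitor XIAP, had 8.44 and 9.35 CPM in the libraries labelled BRG1, against 34.2 and 29.9 CPM in controls (-1.85 ± 0.15; adjusted p = 1.35e-07). The RefSeq spans of FBXO39 and C12H17orf100 cover all of XAF1. FBXO39 did not pass (-0.51 ± 0.44, adjusted p = 0.369), and C12H17orf100 had no tested row under that symbol. GBP1, a guanylate-binding GTPase that coats intracellular pathogens, had 20.9 and 23.7 CPM in the libraries labelled BRG1, against 77.5 and 68.8 CPM in controls (-1.71 ± 0.12; adjusted p = 3.61e-08).

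IFI44 and IFI44L, related genes 10.4 kb apart between 134634679 and 134679212 on chromosome 6, fell by different amounts. IFI44 had 18.5 and 19.7 CPM in the libraries labelled BRG1 and 70.4 and 56.9 CPM in controls (-1.73 ± 0.13; 95% interval -2.01 to -1.46). IFI44L had 41.3 and 39.4 CPM in the libraries labelled BRG1 and 83.1 and 78.1 CPM in controls (-0.998 ± 0.10; 95% interval -1.22 to -0.77). Their intervals did not meet.

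The remaining induced proteins are less well understood or act outside the cell. EPSTI1, an interferon-induced protein of stroma and epithelium, fell by 1.67 ± 0.18 on the log2 scale (adjusted p = 2.74e-06). IFI35 and NMI, which bind each other, had log2 fold changes of -1.51 ± 0.24 and -1.12 ± 0.15. The 2 libraries labelled BRG1 differed in IFI35, with 3.49 and 6.57 CPM, but both lay under the 15.5 and 13.0 CPM of controls. LGALS3BP, a secreted glycoprotein that binds galectins, had 122 and 121 CPM in the libraries labelled BRG1 and 249 and 260.1 CPM in controls (-1.07 ± 0.10). PLSCR1, a phospholipid scramblase, had 17.2 and 17.3 CPM in the libraries labelled BRG1 and 36.9 and 31.1 CPM in controls (-0.98 ± 0.14). All 5 had an adjusted p of 0.000132 or lower.

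Among the ADP-ribosylation genes 3 of 4 fell, against 23.6% of all genes tested. PARP12, which moves to sites of viral RNA and attaches single ADP-ribose units, had 35.3 and 38.4 CPM in the libraries labelled BRG1, against 122 and 131 CPM in controls (-1.78 ± 0.11; adjusted p = 7.97e-09). PARP14, a large relative with macrodomains that read this mark, had 7.77 and 8.09 CPM in the libraries labelled BRG1, against 17.5 and 21.6 CPM in controls (-1.30 ± 0.16; adjusted p = 1.16e-05). PARP9, which works in a complex with the ubiquitin ligase DTX3L, had 13.2 CPM in each library labelled BRG1, against 25.1 and 23.4 CPM in controls (-0.88 ± 0.14; adjusted p = 0.000123).

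DTX3L was the one member that did not pass. It had 7.54 and 6.20 CPM in the libraries labelled BRG1 and 8.65 and 8.84 CPM in controls, and its log2 fold change was -0.35 ± 0.19 (95% interval -0.75 to 0.06; adjusted p = 0.151). PARP9 and DTX3L overlap by 395 bases on chromosome 13, where PARP14 lies 84.9 kb away, within 137809499 to 138000862. How reads in that overlap were counted is not known, since the counter and its strand setting are not given. Reads marked ambiguous, 1.902% to 2.33% of reads listed, were set apart from genes. Whether these hold reads of this overlap is not known. The ratio of PARP9 to DTX3L reads was 1.75 and 2.13 in the libraries labelled BRG1, against 2.90 and 2.64 in controls.

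The 2 chains of the type I interferon receptor moved in opposite directions, each by less than 1.5-fold. Type I interferons signal through both chains together. IFNAR1 (ENSSSCG00000033115; chromosome 13, 196925731 to 196951398) had 162 CPM in each library labelled BRG1, against 117 and 124 CPM in controls (log2 fold change 0.43 ± 0.10; adjusted p = 0.00261). IFNAR2 (ENSSSCG00000036556; 196765915 to 196852640), the chain that USP18 binds, had 80.5 and 80.2 CPM in the libraries labelled BRG1, against 111 and 105 CPM in controls (-0.43 ± 0.10; adjusted p = 0.00257). In neither gene did the groups overlap. Reads of IFNAR1 numbered 2.01 and 2.02 times those of IFNAR2 in the libraries labelled BRG1, against 1.05 and 1.18 times in controls. The RefSeq span of IFNAR2 overlaps by 28.9 kb that of LOC110256370, which had no tested row under that symbol.

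Neither receptor call was kept with a library labelled BRG1 left out, though the log2 fold changes hardly moved. In such a fit the spread comes from the other group alone. Leaving out control 1 gave log2 fold changes of 0.38 for IFNAR1 and -0.40 for IFNAR2. Leaving out control 2 gave 0.45 for IFNAR1 and -0.49 for IFNAR2. Without library 1 labelled BRG1 the log2 fold change was 0.43 for IFNAR1 (adjusted p = 0.0912) and -0.43 for IFNAR2 (adjusted p = 0.0947). Without library 2 labelled BRG1 the values were 0.42 (adjusted p = 0.0978) and -0.43 (adjusted p = 0.0948). With libraries scaled by size alone IFNAR2 no longer passed (-0.20; adjusted p = 0.103) and IFNAR1 was at 0.65.

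**Figure D4:**
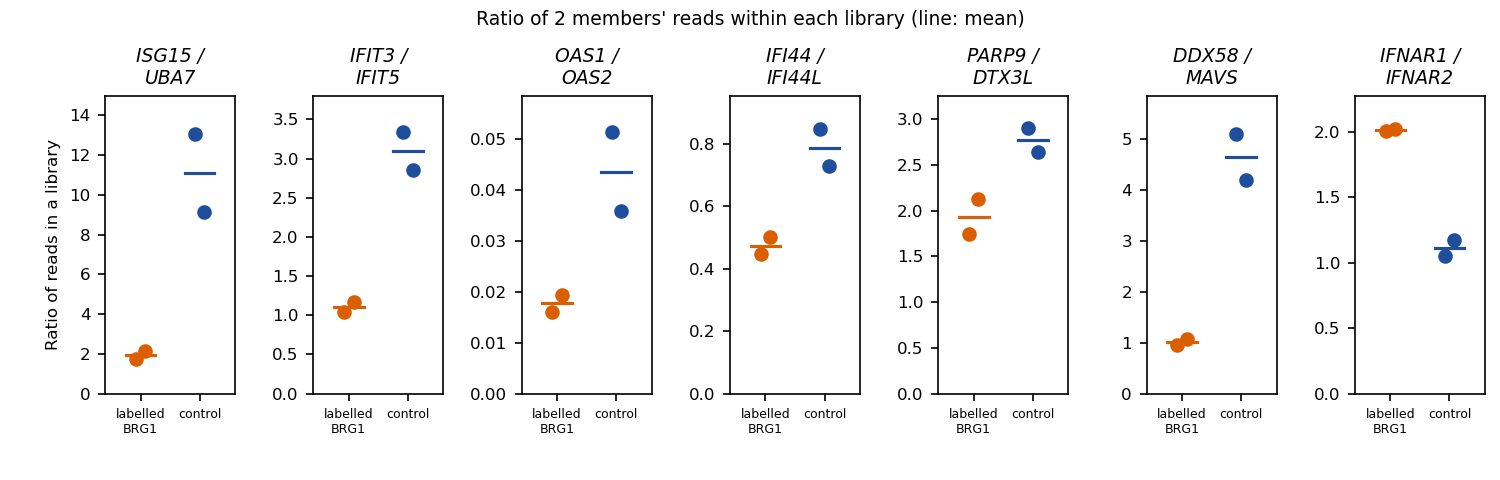
Ratio of the reads of 2 members within each library, for 7 pairs; points are libraries, lines are means of 2, orange for the libraries labelled BRG1 and blue for controls, and each axis starts at 0. The ratio was lower in both libraries labelled BRG1 for 6 pairs and higher for IFNAR1 over IFNAR2.

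The 7 pairs whose ratios are given or drawn were chosen after their values were seen. The other 2 drawn are OAS1 over OAS2, at 0.0161 and 0.0194 in the libraries labelled BRG1 and 0.0513 and 0.0358 in controls, and IFI44 over IFI44L, at 0.448 and 0.501 in the libraries labelled BRG1 and 0.847 and 0.729 in controls. A ratio shows that 2 genes changed unequally, not which of them changed. With 2 libraries a group, no exact test of such a ratio can go below p = 0.333.

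By role, the median log2 fold change was -2.11 over the OAS genes, -1.84 over the IFIT genes, -1.71 over the nucleic acid effectors, -1.64 over the ISG15 system, -1.62 over the MX genes, -1.59 over the membrane and other induced proteins, -1.57 over the sensors with MAVS, and -1.09 over the PARP group. Without OASL and ISG20, which passed the filter through their controls, the median was -1.47 over the other OAS genes and -1.25 over the other nucleic acid effectors, so these 2 roles have no firm place in the order. Of the 39 members that fell, 6 did so at least 4-fold (ISG20, ISG15, IFI6, OASL, IFIT3 and OAS1). Another 24 fell by 2-fold to 4-fold and 9 by less than 2-fold. Over all genes tested, 6.27% fell at least 2-fold. Requiring 10 reads in each library, which leaves out ISG20 and OASL, 4 members fell at least 4-fold (ISG15, IFI6, IFIT3 and OAS1). The count of at least 4-fold was 3 without control 1 (IFI6, ISG15 and ISG20), 9 without control 2, 9 without library 2 labelled BRG1, and 4 with libraries scaled by size alone. The 9 that fell by less than 2-fold were UBA7, IFIT5, OAS2, SAMHD1, SAMD9, PARP9, PLSCR1, IFI44L and IFNAR2.

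Between the controls, the first library was above the second in 27 of 42 members (64.3%), against 51.5% of all genes, with a median ratio of 1.06 over members and 1.009 over all genes. Between the libraries labelled BRG1, the first was above the second in 15 of 42 (35.7%), against 49.8% of all genes, with a median ratio of 0.96. These differences between replicates were small beside those between the groups.

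A second list of 54 names from the wider interferon pathway, none of them members, was set beside these genes, and 36 of its genes were tested. Of these, 26 fell and 0 rose by edgeR, with a median log2 fold change of -0.69, against 23.6% lower, 21.0% higher and a median of 0.02 over all genes. At an unadjusted p under 0.05 the counts were 26 lower and 0 higher, and by DESeq2 25 and 0. With libraries scaled by size alone 1 was higher, and without control 2 there were 2. The 8 with the smallest adjusted p were all lower: the chemokine gene CXCL10, the transcription factor genes IRF1 and IRF7, the immunoproteasome genes PSMB8 and PSMB9, the peptide transporter gene TAP1, the kinase gene IKBKE and PML. IRF7, the factor that amplifies interferon production, had 24.5 and 26.2 CPM in the libraries labelled BRG1, against 64.3 and 58.8 CPM in controls (-1.28 ± 0.11; adjusted p = 4.62e-07). IRF1 had 45.7 and 50.3 CPM in the libraries labelled BRG1, against 142 and 136 CPM in controls (-1.53 ± 0.10), and PSMB9 4.08 and 3.87 CPM in the libraries labelled BRG1, against 22.3 and 19.1 CPM in controls (-2.38 ± 0.17).

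A few further genes of this list were picked out after their values were seen. IRF9, a DNA-binding factor of the interferon response, fell by 0.87 ± 0.11 on the log2 scale (adjusted p = 1.04e-05), while STAT2, its partner, stood at -0.26 ± 0.10 (adjusted p = 0.0477, and above 0.05 in 7 of 12 alternatives). Chains of the interferon-gamma receptor fell as well, with log2 fold changes of -0.76 ± 0.11 for IFNGR1 (adjusted p = 5.85e-05) and -0.66 ± 0.11 for IFNGR2 (adjusted p = 0.00015). Of the 36 genes tested, 10 did not pass. Among them were JAK1 (0.01 ± 0.10, adjusted p = 0.924), TYK2 (0.06 ± 0.11, adjusted p = 0.702) and SOCS1 (-0.09 ± 0.17, adjusted p = 0.699). ZC3HAV1 did not pass either (0.22 ± 0.10, adjusted p = 0.0997), though both libraries labelled BRG1 lay above both controls. Interferon genes themselves were hardly read. IFNB1 had 2 and 0 reads in the libraries labelled BRG1 and 3 and 4 in controls, IFNA1 had 1 and 0 in the libraries labelled BRG1 and 0 and 0 in controls, IFNK had 0 and 2 in the libraries labelled BRG1 and 0 and 0 in controls, and IFNG had 0 reads in all 4, so that no difference in them was detectable at this depth. IFNE, an interferon known from epithelium of the reproductive tract, was the one interferon gene of this list that was tested. It had 15 and 6 reads in the libraries labelled BRG1 and 4 and 15 in controls, and did not pass (log2 fold change -0.08 ± 0.92; 95% interval -2.04 to 1.89; adjusted p = 0.952).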

How the data were processed

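RNA of 4 libraries was analysed, grouped and numbered by the sample titles. The deposited files hold whole-number read counts per Ensembl gene, not normalized. The submitters' processing notes name the tools STAR, SAMtools, Cufflinks, FastQC, edgeR and DESeq2 and the build Sscrofa11.1. Not given in the sources used here are the counter, its strand setting and the annotation release; overlapping genes, antisense genes and close paralogs (MX, HERC, IFIT, GBP) may share or lose reads. Closing rows that name no gene (10.2% to 13.8% of reads listed) were left out of library sizes and tests.

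edgeR 4.0.16 (R 4.3.3) was run on genes passing filterByExpr (minimum count 10, minimum total 15), with TMM scaling and the quasi-likelihood F test for group. Adjustment was by Benjamini-Hochberg over 14617 genes, with a threshold of 0.05. All 42 members passed the filter. Log2 fold changes have a prior count of 0.125; intervals are 95%. The test was checked on simulated counts. Alternatives were other scalings, filters, DESeq2 1.42.0, limma-voom (limma 3.58.1), a replicate block, stricter thresholds, each library left out, and a correction for gene span in each library, chosen after seeing the data. Gene positions come from RefSeq (Sscrofa11.1), by symbol, for 40 of 42 members.

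The members and lists were chosen with earlier results of these data known. Every member with at least 10 reads in a library was named; of the second list, the 8 genes with the smallest adjusted p, and a few chosen after their values were seen. A result for 1 gene of the second list is not reported here.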

Additional observations from a re-analysis of the deposited data

Results flagged for a closer look

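Reads outside annotated genes enter none of the comparisons. They made up a mean of 10.4% ± 0.18 of the reads listed in the libraries labelled BRG1, against 6.73% ± 0.87 in controls (SD, n = 2 each), and were singled out because both libraries labelled BRG1 lay above both controls. An exact permutation test of 2 against 2 cannot go below p = 0.333. Other closing rows differed the other way, and the rule did not look for those. Reads marked ambiguous were 1.915% and 1.902% in the libraries labelled BRG1, against 2.33% and 2.14% in controls. Reads with no unique alignment were 1.42% and 1.422% in the libraries labelled BRG1, against 1.804% and 1.603% in controls. Their part in the results was not tested.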

How the results depend on the processing

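Of 500 values of members under 12 alternatives, 493 kept their direction and their side of the threshold and 7 no longer passed; 0 turned round. These 7 belong to OASL, IFNAR1 and IFNAR2, and their values stand beside those genes. The number of members that fell stayed between 37 and 39 in all refits, or 30 with a fold change of at least 2; that rule also left 0 members higher, 917 genes lower, 1267 genes higher and 12 pathway genes lower. Scaling by library size alone put the all-gene median at 0.24 on the log2 scale, against 0.02: 38 members fell and 2 rose, their median was -1.35, 2140 genes fell and 4819 rose, or 30.8% of calls lower against 52.9%, 1 pathway gene rose, and IFIT5 (-0.43), UBA7 (-0.44), SAMHD1 (-0.43) and IFNGR2 (-0.44) moved by over 1.5 times but still passed. Leaving out 1 library at a time gave 1 to 2 members higher, 2177 to 4321 genes lower, 1908 to 3673 genes higher and 0 to 2 pathway genes higher. Without library 1 labelled BRG1 or without library 2, 1 member was higher. The titles' numbers did not pair the libraries (correlation of deviations -0.04); with a replicate block 39 members fell and 2 rose, and 3505 and 3189 genes did. With the trend with gene span removed, 37 of 40 members with a span fell and 2 rose. Of the 11318 genes then tested, 2720 fell and 2430 rose. At the depth of ISG20 and OASL, with under 15 reads in each library labelled BRG1, the size of the fall is known only roughly.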

Other observations

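Of the names with no symbol in the count files, BST2 and GBP2 could be matched by Ensembl identifier through the gene name table. BST2 (ENSSSCG00000033453), which encodes tetherin, a membrane protein that holds budding viruses at the cell surface, had 8.61 and 7.10 CPM in the libraries labelled BRG1, against 41.0 and 31.2 CPM in controls (log2 fold change -2.20 ± 0.17; adjusted p = 8.95e-08, edgeR quasi-likelihood test). GBP2 (ENSSSCG00000006923), a guanylate-binding protein encoded 17.0 kb from GBP1 on chromosome 4, had 7.49 and 7.93 CPM in the libraries labelled BRG1, against 11.7 and 12.6 CPM in controls (-0.65 ± 0.17; adjusted p = 0.00504). Neither enters the counts of members.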
